A study of Mus musculus with 12 samples.

Results

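Expression of 9 genes of the hedgehog pathway, out of 54532 genes in the count table, was followed in injured mouse muscle with and without Pparg in fibro-adipogenic progenitors (FAPs). They were taken by name: the ligand Dhh, the receptors and surface proteins Ptch1, Smo, Boc and Hhip, the inhibitor Sufu and the transcription factors Gli1, Gli2 and Gli3. All 9 passed the filter on low counts, so each was tested. The samples were whole tibialis anterior lysates, 6 labelled Wildtype and 6 labelled FAP no ppary, in which the nuclear receptor Pparg was conditionally deleted in FAPs, resident mesenchymal cells from which muscle adipocytes arise. Every sample was collected 5 days after glycerol injection, an injury that is followed by fat formation in muscle, and every one carries the strain name 129svlmJ in the labels. There was no uninjured group. The driver of the deletion, the efficiency of the deletion in FAPs, and the sex and age of the mice are not given in the sources used here.

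Hedgehog ligands bind Patched receptors, which otherwise hold Smoothened inactive. Released Smoothened acts through the primary cilium and frees the Gli factors from Sufu, and Gli1, Ptch1 and Hhip are then transcribed as direct targets, so their RNA is commonly read as pathway output. In muscle, FAPs carry cilia and respond to the pathway, Desert hedgehog (Dhh) is made by Schwann and endothelial cells, and activation of the pathway in FAPs is known to hold back their conversion to adipocytes, partly through Timp3.

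Library totals ranged from 15716056 to 29790720 counts, and the 13 protein-coding mitochondrial genes took 2.66% to 10.8% of them. Pparg itself (ENSMUSG00000000440) stood at 44.96, 56.3 and 67.4 CPM in the lowest, median and highest control (CPM is the count scaled to library size after TMM) and at 15.6, 23.2 and 43.1 CPM in knockouts, with all 6 knockouts below all 6 controls (log2 fold change -1.12 with an SE of 0.21, adjusted p = 0.0299 by edgeR). Leaving out control replicate 1, 2, 4, 5 or 6 or knockout replicate 3, 4 or 6 raised that adjusted p to between 0.0521 and 0.0856. Whole muscle was sequenced, so fewer cells of a type and less RNA per cell cannot be told apart in any value given here. The labels do not say whether the 6 samples of a group came from separate animals, so p-values measure the spread between these samples, which may be technical.

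Expression of the hedgehog genes did not differ detectably between the groups. Of the 9, 0 reached the threshold of 0.05 for the adjusted p by edgeR (Benjamini-Hochberg, over the 16393 genes tested), where 0.799% of all tested genes did. At an unadjusted p under 0.05 the count was again 0 of 9, against 9.47% of all genes, and 0 of 9 had groups that did not overlap in CPM, against 1.43% of all genes. DESeq2 called 0 of the 9 (2.43% of all genes) and limma-voom 0 of the 9 (2.4%). Log2 fold changes ran from -0.36 for Gli1 to 0.28 for Dhh, with 6 positive and 3 negative (49.5% and 50.5% over all tested genes) and a median of 0.05, where the median over all tested genes was 0.00. A missed threshold does not show equal expression, so the 95% intervals matter: for 8 of the 9 genes the interval lay within a 2-fold change in either direction, and for 6 of the 9 within 1.5-fold. Dhh was the exception at 2-fold, with an interval from 0.668-fold to 2.21-fold.

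**Figure D1:**
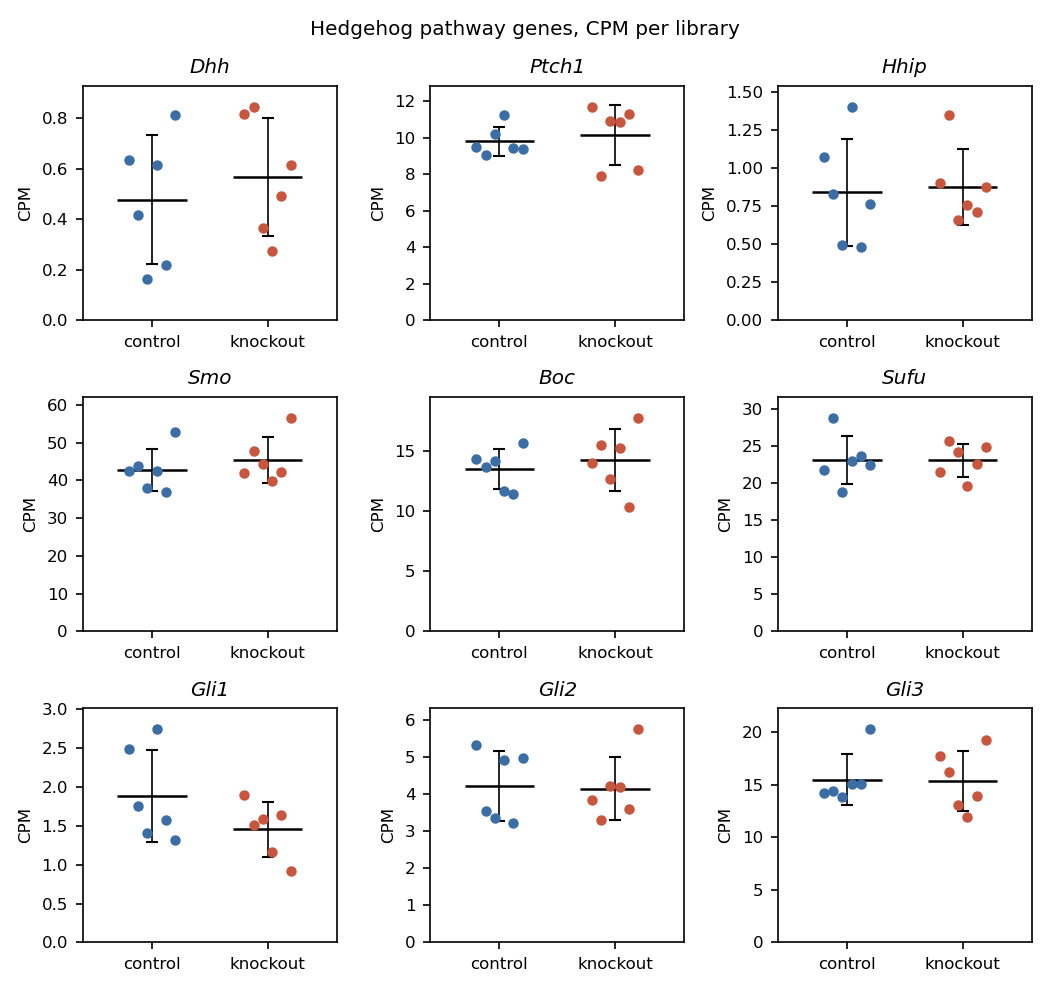
CPM (TMM-scaled) of the 9 hedgehog genes in each of the 6 control and 6 knockout libraries, 1 point per library ordered by replicate number. Horizontal lines are group means and error bars are SD. In all 9 panels the groups overlap, and the panel with the lowest knockout mean relative to control is Gli1, with 1.88 CPM for controls and 1.45 CPM for knockouts.

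Between genes, levels can be compared only per length, for which the FPKM values deposited by the authors were used. Smo was the most abundant, at 7.77 ± 1.03 FPKM (mean and SD over the 12 libraries), 83.0 times the mean of the least abundant, Hhip, at 0.0936 ± 0.0318 FPKM. Sufu (3.30 ± 0.383 FPKM) and Boc (3.10 ± 0.472 FPKM) came next and were not separated, since Sufu was the higher of the pair in 6 of 12 libraries. Gli3 (1.59 ± 0.264 FPKM) lay apart from Boc above it and from Ptch1 below it in all 12 libraries. Ptch1 (0.696 ± 0.0865 FPKM) and Gli2 (0.604 ± 0.125 FPKM) had overlapping ranges, with Ptch1 higher in 9 of 12 libraries. Gli1 (0.330 ± 0.101 FPKM) was below Gli2 and above Dhh in all 12 libraries, and Dhh (0.118 ± 0.0538 FPKM) exceeded Hhip in 8 of 12. The order therefore runs from the signal transducer Smo, at the top, to Gli1, Dhh and Hhip at the bottom.

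**Figure D2:**
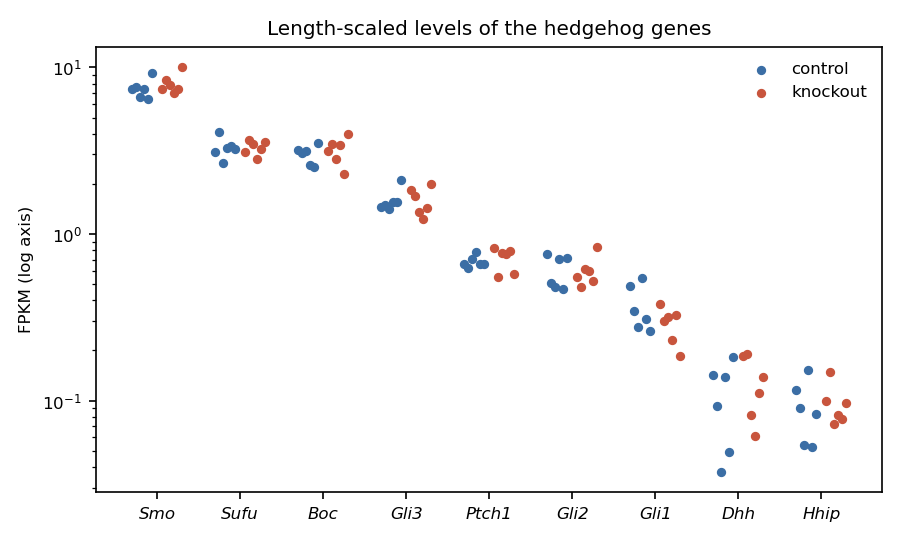
FPKM values of the 9 genes on a log axis, sorted by their mean over the 12 libraries, with 1 point per library and the groups in 2 colours. Smo stands between 6.49 and 10.02 FPKM, while Dhh and Hhip lie between 0.0372 and 0.190 FPKM.

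Of the ligands, only Dhh gave enough reads to be tested. Dhh (ENSMUSG00000023000, chromosome 15, 98891152 to 98898540, minus strand, GRCm38) had 4 to 19 counts per library. It stood at 0.165, 0.515 and 0.812 CPM in controls (lowest, median, highest) and at 0.275, 0.553 and 0.842 CPM in knockouts. Knockout replicates 1 and 2, at 0.817 and 0.842 CPM, lay just above the highest control, and the other 4 lay within the control range. The log2 fold change was 0.28 (SE 0.40, adjusted p = 0.934 by edgeR). With a mean of 9.67 counts per control library, counting alone would give an SD of 32.2% of the mean, and the observed SD was 53.4%. In the GENCODE M21 annotation 12.4% of Dhh exonic bases are shared with Rhebl1 on the same strand and 25.2% with the antisense gene Gm49442. Rhebl1 had 991 counts over all 12 libraries against 130 for Dhh. These are the largest shares among the 9 hedgehog genes, so the Dhh count is less certain.

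Sonic hedgehog (Shh) was scarcer, and Indian hedgehog (Ihh) was about as scarce as Dhh. Shh had 5 counts in all, 1 in a control and 4 in knockout replicate 4, and Ihh, the ligand of growing cartilage, had 2 to 17 counts per library; neither was tested. Per length, Ihh stood at 0.140 FPKM on average, slightly above Dhh at 0.118 FPKM. The genes that release or carry the ligands were measured too. Of 8 genes for ligands and their release, 6 were tested and 0 were called, against 0.799% of all tested genes. The median log2 fold change of this list was 0.10. Disp1, which releases lipid-modified ligand from the cell, averaged 12.7 ± 1.03 CPM in controls against 13.7 ± 1.96 CPM in knockouts (SD over 6 libraries). Scube1, a secreted carrier protein, had the smallest p of the list, at 0.562 ± 0.137 against 0.835 ± 0.334 CPM, with 4 of 6 knockouts above all controls (log2 fold change 0.58 with an SE of 0.30, adjusted p = 0.600 by edgeR).

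Smo (ENSMUSG00000001761, chromosome 6, 29735503 to 29761365, plus strand), the membrane protein that passes the signal inwards, was the most abundant of the 9 in CPM as well. Controls stood at 36.9, 42.4 and 52.7 CPM and knockouts at 39.9, 43.2 and 56.4 CPM. Replicate 6 was the highest of its group in both, and the remaining values overlapped. The log2 fold change was 0.09 (SE 0.10), which as a 95% interval spans 0.917-fold to 1.23-fold.

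Boc (ENSMUSG00000022687, chromosome 16, 44485049 to 44558897, minus strand) is a co-receptor that presents ligand to Ptch1. Its controls stood at 11.4, 13.98 and 15.7 CPM and its knockouts at 10.4, 14.7 and 17.8 CPM. One knockout, replicate 5, lay below all controls and 1, replicate 6, above them, so the knockouts were spread on both sides (log2 fold change 0.08, SE 0.12, interval 0.877-fold to 1.27-fold). Cdon, the related co-receptor, had the smallest p among the 7 receptors and co-receptors: 42.0 ± 3.56 CPM in controls against 48.6 ± 10.4 CPM in knockouts (SD over 6 libraries), with 4 knockouts above and 1 below all controls (log2 fold change 0.21 with an SE of 0.13, adjusted p = 0.697 by edgeR). Gas1, the third co-receptor, was the most abundant of the 3 per length, at 36.0 FPKM, and stood at 110.9 ± 17.1 against 104.4 ± 31.1 CPM. No member of this list of 7 was called, against 0.799% of all tested genes, and the median log2 fold change of the list was 0.07.

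Sufu (ENSMUSG00000025231, chromosome 19, 46396896 to 46488804, plus strand), which holds Gli proteins in the cytoplasm, was the closest to equal. Controls stood at 18.9, 22.8 and 28.8 CPM and knockouts at 19.7, 23.4 and 25.7 CPM, with every knockout inside the control range. Its log2 fold change was 0.00 (SE 0.10), with an interval from 0.864-fold to 1.16-fold.

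Gli2 and Gli3 carry the first step of the transcriptional response, Gli2 mainly as activator and Gli3 mainly as repressor. Gli2 (ENSMUSG00000048402, chromosome 1, 118834132 to 119053619, minus strand) stood at 3.23, 4.23 and 5.32 CPM in controls and at 3.31, 4.01 and 5.75 CPM in knockouts. Only knockout replicate 6 exceeded the controls (log2 fold change -0.02, SE 0.18, interval 0.756-fold to 1.29-fold). Gli3 (ENSMUSG00000021318, chromosome 13, 15463235 to 15730026, plus strand) stood at 13.8, 14.8 and 20.3 CPM in controls and at 11.9, 15.1 and 19.2 CPM in knockouts. The other 5 controls lay between 13.8 and 15.1 CPM, below control replicate 6 at 20.3 CPM, and knockout replicates 3 and 4 fell below all controls (log2 fold change -0.01, SE 0.13, interval 0.818-fold to 1.21-fold).

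Over the 23 transducers and Gli regulators, 0 were called, against 0.799% of all tested genes, and the median log2 fold change was 0.04. It was positive for 18 and negative for 5 (49.5% and 50.5% over all tested genes). The smallest p belonged to Kif7, the kinesin of the ciliary tip that organises Gli and Sufu there. Kif7 stood at 7.997, 9.26 and 10.7 CPM in controls and at 5.85, 7.74 and 8.64 CPM in knockouts, with 3 of 6 knockouts below all controls (log2 fold change -0.29, SE 0.12, unadjusted p = 0.0273, adjusted p = 0.413 by edgeR). In GENCODE M21, 19.1% of its exonic bases are shared with an antisense gene. Genes of the primary cilium, the organelle on which the pathway depends, gave 0 calls among 22, against 0.799% of all tested genes. At that share 0 calls would be likely for any 22 genes. Log2 fold changes of the cilium genes lay between -0.11 and 0.19 with a median of 0.05, and were positive for 16 and negative for 6. Cep164, a protein of the distal appendages that dock the cilium, had the smallest p of them, at a mean of 17.9 CPM in controls against 19.9 CPM in knockouts (adjusted p = 0.746 by edgeR). Tulp3, which carries receptors into the cilium, averaged 31.2 against 33.3 CPM.

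Gli1 (ENSMUSG00000025407, chromosome 10, 127329882 to 127341974, minus strand), the Gli factor that is itself induced by the pathway, had the smallest p of the 9 genes. It was counted 17 to 51 times per library. In GENCODE M21, 5.31% of Gli1 exonic bases are shared with the antisense gene Gm47200, which had 0 counts. A further overlap, 1.24%, is with Arhgap9 on the opposite strand, which had 10767 counts over all 12 libraries against 421 for Gli1. Controls stood at 1.32, 1.66 and 2.74 CPM and knockouts at 0.921, 1.55 and 1.89 CPM. Knockout replicates 4 and 6 lay below all controls, while control replicates 1 and 4, at 2.49 and 2.74 CPM, lay above all knockouts, and the other 8 libraries shared 1 range. The log2 fold change was -0.36 (SE 0.24, unadjusted p = 0.155, adjusted p = 0.754 by edgeR), with an interval from 0.546-fold to 1.11-fold. The interval reached further down than up.

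Ptch1 (ENSMUSG00000021466, chromosome 13, 63508328 to 63573598, minus strand), receptor and target at once, gave no such offset. Controls stood at 9.03, 9.45 and 11.2 CPM and knockouts at 7.91, 10.9 and 11.7 CPM. The knockouts fell into a lower pair, replicates 2 and 6 at 7.91 and 8.20 CPM, both below every control, and 4 libraries between 10.8 and 11.7 CPM, 2 of them above every control. The SD was 8.21% of the mean in controls and 16.2% in knockouts, and the log2 fold change was 0.05 (SE 0.11, interval 0.874-fold to 1.23-fold). Hhip (ENSMUSG00000064325, chromosome 8, 79965851 to 80058006, minus strand), the membrane protein that binds ligand and damps the signal, had 11 to 25 counts per library. It stood at 0.480, 0.795 and 1.398 CPM in controls and at 0.661, 0.816 and 1.35 CPM in knockouts, all within the control range (log2 fold change 0.07, SE 0.29, interval 0.676-fold to 1.63-fold). Of these 3 targets, Gli1 had a negative and Ptch1 and Hhip positive fold changes, and none was called.

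**Figure D3:**
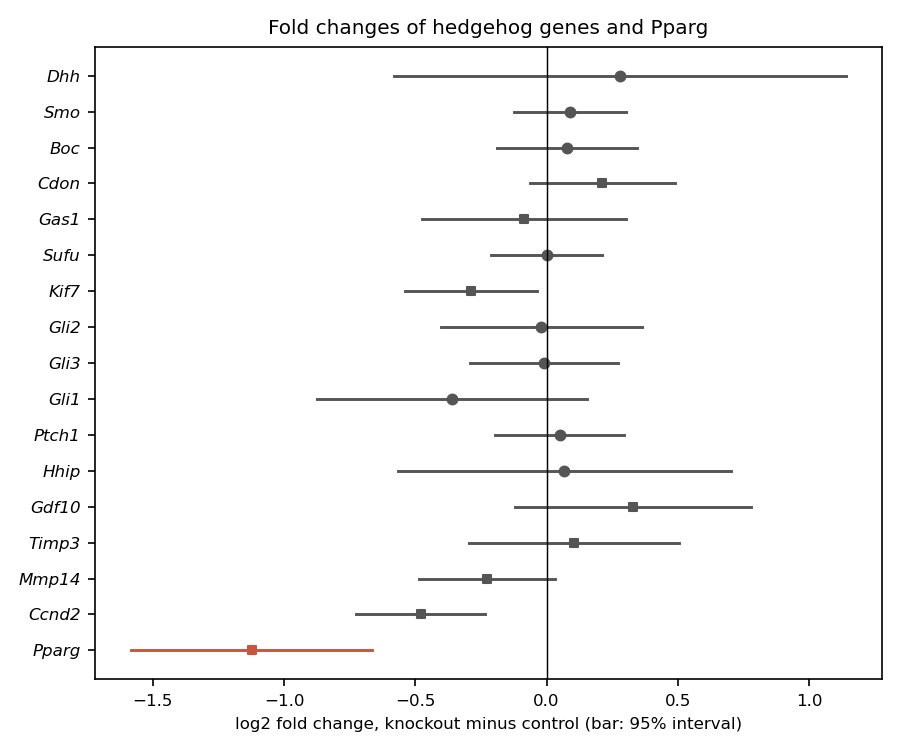
Log2 fold changes, knockout minus control, with 95% intervals for the 9 hedgehog genes (circles), 7 further pathway or target genes and Pparg (squares). Pparg, at -1.12, is drawn in red as the gene past an adjusted p of 0.05 among the 17 shown, and the intervals of all 9 hedgehog genes include 0.

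The next genes, 3 in number, have been placed downstream of hedgehog in the control of muscle fat or act there with Timp3. Timp3, an inhibitor of matrix metalloproteinases, stood at 8.56, 15.5 and 18.7 CPM in controls and at 10.4, 17.2 and 19.2 CPM in knockouts, with 2 knockouts above the controls (log2 fold change 0.10, SE 0.19). Mmp14, a membrane protease that Timp3 inhibits, stood at 221, 264 and 328 CPM in controls and at 190, 225 and 283 CPM in knockouts, with 3 knockouts below all controls (log2 fold change -0.23 with an SE of 0.12, adjusted p = 0.622 by edgeR). Gdf10, a secreted factor of the TGF-beta family, stood at 3.01, 5.65 and 7.33 CPM in controls and at 4.46, 6.94 and 9.25 CPM in knockouts, with 1 knockout above the controls (log2 fold change 0.33 with an SE of 0.21, adjusted p = 0.731 by edgeR). None of the 3 was called, against 0.799% of all tested genes. In GENCODE M21, 21.3% of Timp3 exonic bases are shared with Syn3 on the opposite strand; Syn3 had 69 counts over all 12 libraries against 3976 for Timp3.

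Promoters were searched for the Gli consensus because Gli1, Ptch1 and Hhip are read as its output. The RefSeq promoter table (GRCm38.p6, 250 bases before to 50 after each start) holds 7 of the 9 genes, Gli1 and Boc not being among them. The full consensus GACCACCCA or its reverse complement TGGGTGGTC occurred in 0 of these 7 and in 0.253% of all 32851 promoters. The 7-base core CCACCCA, or TGGGTGG on the other strand, which is contained in the full consensus, occurred in 0 of the 7 and in 9.3% of all promoters. At such shares 0 matches among 7 promoters would not be unusual for any genes, so the search cannot tell these genes from others. Among the 12 promoters found for the list of target genes 3 held the core, those of Timp3, Hsd11b1 and Mycn. Timp3 held it on each strand, and the stretch that carries both matches is shown because Timp3 is the proposed link from the pathway to muscle fat, with the core letters in capitals (chr10:86300191-86300364, plus strand, 221 to 48 bases before the start):
Timp3: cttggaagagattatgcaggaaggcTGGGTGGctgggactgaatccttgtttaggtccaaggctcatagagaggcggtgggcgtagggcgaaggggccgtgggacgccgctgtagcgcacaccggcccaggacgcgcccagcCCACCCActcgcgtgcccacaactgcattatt
Such a match is a description of letters, and no binding was measured here.

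Across the wider list of 17 target genes, 16 were tested and 0 were called, against 0.799% of all tested genes. Log2 fold changes were positive for 8 and negative for 8, and the median was -0.06. An unadjusted p under 0.05 by edgeR was reached by 3 of the 16, against 9.47% of all tested genes. Ccnd2, the cell cycle regulator cyclin D2, stood at 46.0, 50.8 and 64.4 CPM in controls and at 31.6, 36.9 and 46.6 CPM in knockouts, with 5 of 6 knockouts below all controls (log2 fold change -0.48 with an SE of 0.11, adjusted p = 0.0769 by edgeR). Its adjusted p was 0.0131 with DESeq2 and 0.0136 with limma-voom, so the call depends on the test. By edgeR it was 0.0327 with the mitochondrial share as covariate, 0.0084 with the replicate number as a block and 0.0300 without knockout replicate 2. These are the only 5 of 21 alternatives in which Ccnd2 passed. In the other 16 it missed the threshold, with an adjusted p of up to 0.203 (edgeR, without knockout replicate 5). Ccnd2 is also induced by many other signals. Rab34, a small GTPase of ciliogenesis, fell short with a log2 fold change of -0.26 (adjusted p = 0.379), and Hsd11b1, which activates glucocorticoids and is expressed in fat, with -0.38 (adjusted p = 0.485, both edgeR quasi-likelihood). Igfbp6, a growth factor binding protein of fibroblasts, had a value of -0.33.

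**Figure D4:**
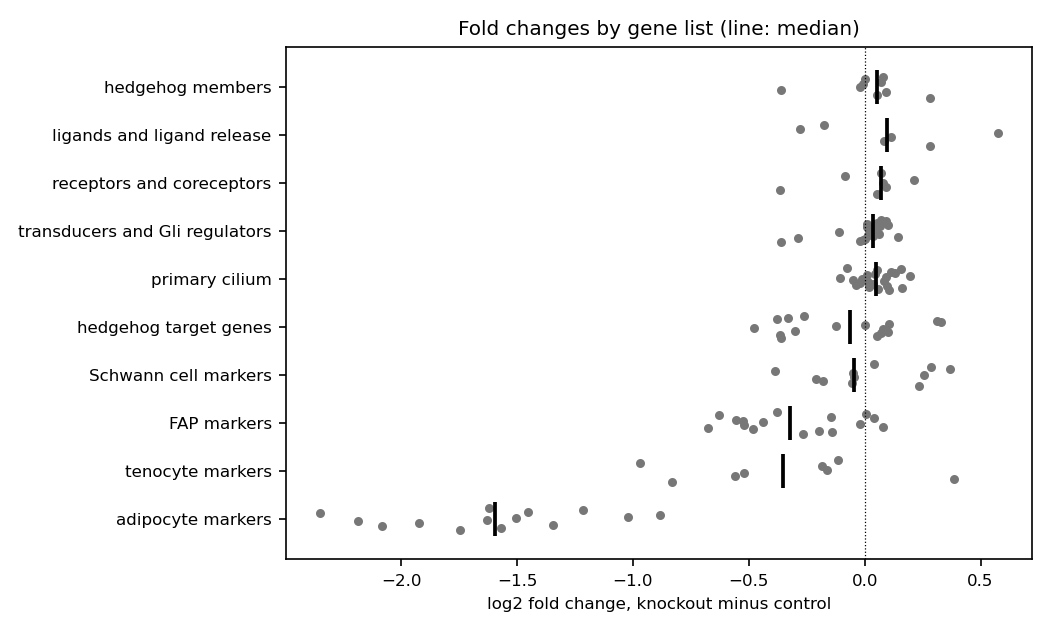
Log2 fold changes, knockout minus control, of every tested gene of each hedgehog list and of 4 cell type marker lists, with 1 point per gene and the median as a vertical line. The hedgehog lists centre between -0.06 and 0.10, whereas the adipocyte markers centre at -1.60.

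Cells that send or receive the signal were followed through marker genes. Schwann cell markers, for the source of Dhh, were present at low levels: 0 of 14 were at zero in all libraries, their summed level was 217 to 277 CPM in controls and 199 to 262 CPM in knockouts, and 0 of the 11 tested were called. Endothelial markers summed to 322 to 412 CPM in controls and 235 to 405 CPM in knockouts, with 0 of 10 called. FAP markers, for the cells that receive it, summed to 9686 to 13126 CPM in controls and 7510 to 12379 CPM in knockouts. Their log2 fold change was negative for 13 of 16 (median -0.32), against 50.5% of all tested genes. Col15a1, a basement membrane collagen, and Gsn, an actin-severing protein, fell by 0.52 and 0.56 on the log2 scale (adjusted p = 0.0208 and 0.0300, edgeR quasi-likelihood). Col15a1 missed the threshold, with an adjusted p of 0.0559 to 0.0701, when controls 2 or 4 or knockouts 3 or 4 were omitted singly. Gsn missed it, with values of 0.0588 to 0.0884, when any 1 of controls 1 to 4 or of knockouts 3 to 6 was omitted. Adipocyte markers had the lowest median of the 11 marker lists, at -1.60. Of these markers, 5 of 14 were called, all lower, against 0.799% of all tested genes. Their summed level was 3959 to 6179 CPM in controls and 782 to 2856 CPM in knockouts. No call was made among the tested markers of perineurial cells (4 tested), tenocytes (8), mural cells (9), satellite cells (8), muscle fibres (10), macrophages (9) or lymphocytes (7). Mostly negative fold changes were not particular to FAP markers. Tenocyte markers were negative for 7 of 8 (median -0.35) and endothelial markers for 9 of 10 (median -0.09). Muscle fibre markers were positive for 9 of 10 and lymphocyte markers for 7 of 7. As a mean of log2 CPM over each list, the adipocyte score was 6.71 ± 0.307 in the 6 controls against 4.83 ± 1.08 in the 6 knockouts (mean and SD; adjusted p = 0.0238 over 11 scores, exact permutation test). The FAP score, at 7.01 ± 0.171 against 6.68 ± 0.267, missed the threshold (exact permutation test, adjusted p = 0.135). So did the lymphocyte score, which was higher in knockouts, at 0.502 ± 0.450 against 1.11 ± 0.350 (exact permutation test, adjusted p = 0.135). All marker lists were chosen with earlier results of these data known, so p-values of their scores are not independent tests. The part of these marker differences in the hedgehog values was not tested.

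Among themselves the hedgehog genes did not vary as 1 block. After the group mean was taken off each library, the correlation of log2 CPM over the 12 libraries was positive for 23 of the 36 pairs, above 0.5 for 7 and had a median of 0.29. The closest pairs were Dhh with Hhip (r = 0.77) and Smo with Gli3 (r = 0.76), and Dhh also followed Gli3 (r = 0.69) and Smo (r = 0.66). Ptch1 ran the other way from Boc (r = -0.61), Smo (r = -0.59) and Sufu (r = -0.54), and was positive with Gli1 alone (r = 0.48). These are descriptions over libraries that share a scaling factor and a mixture of cells. The same deviations of Smo had r = -0.79 with the mitochondrial share of counts and r = -0.87 with the mean log2 CPM of the muscle fibre markers, Sufu had -0.59 and -0.62, and Ptch1 had 0.58 and 0.59. Boc had r = 0.72 with the FAP markers. The part of fibre RNA in the pairwise values was not tested.

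**Figure D5:**
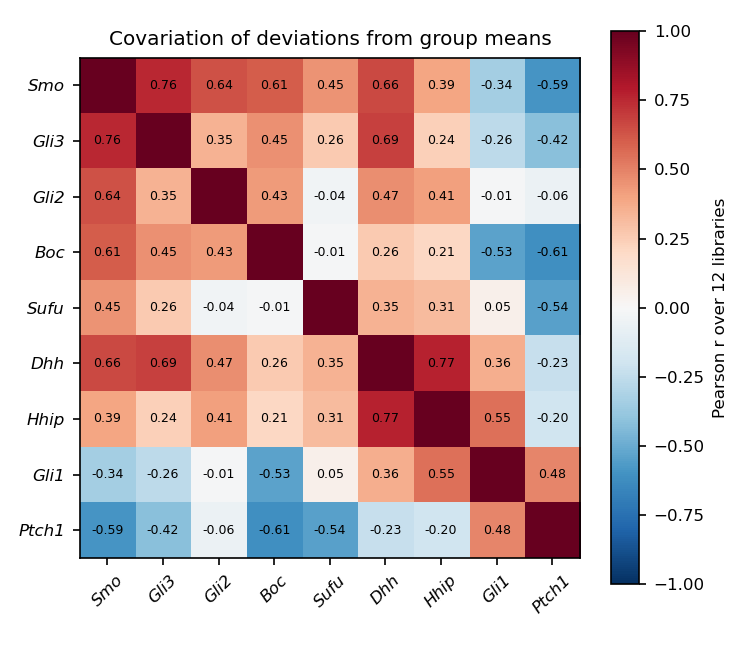
Pearson r between each pair of the 9 genes, from log2 CPM with the group mean taken off, over 12 libraries; red is positive and blue negative. Ptch1 is negative with 7 of the 8 other genes, while Smo, Gli3, Gli2, Boc and Dhh are positive with each other.

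Planned relations, 8 in all, were computed on log2 CPM. Over all 12 libraries Gli1 had r = 0.39 with Ptch1 (permutation p = 0.211, rho = 0.49, permutation p = 0.108) and r = -0.03 once the 2 libraries with the most extreme Gli1 were left out. On log2(FPKM + 1) the same pair had r = 0.35 (permutation p = 0.265, rho = 0.38, permutation p = 0.226) and r = 0.42 without the 2 most extreme libraries. The 2 libraries were picked anew on each scale and need not be the same, so values without them do not compare the scales. With Hhip, Gli1 had r = 0.44 (permutation p = 0.151, rho = 0.41, permutation p = 0.193; r = 0.38 without the 2 most extreme libraries), and on log2(FPKM + 1) it had r = 0.53 (permutation p = 0.0752, rho = 0.41, permutation p = 0.193), which fell to 0.02 without 2. Dhh and Gli1 had r = 0.22 (permutation p = 0.491, rho = 0.27, permutation p = 0.406, r = 0.19 without 2). Dhh and the Schwann cell marker score, a mean of log2 CPM, had r = -0.08 (permutation p = 0.805, rho = -0.06, permutation p = 0.849, r = -0.29 without 2). Gli1 had r = 0.05 with the FAP score (permutation p = 0.881, rho = 0.01, permutation p = 0.991, r = -0.14 without 2), r = -0.30 with the tenocyte score (permutation p = 0.344, rho = -0.28, permutation p = 0.378, r = -0.55 without 2) and r = 0.01 with Gdf10 (permutation p = 0.974, rho = 0.17, permutation p = 0.587, r = 0.02 without 2). The adjusted p over these 7 relations was between 0.738 and 0.974 (permutation, Benjamini-Hochberg). Group means were not taken off for these 7, so a difference between the groups enters each value. Within groups, Gli1 with the FAP score had r = -0.60 in controls (exact permutation p = 0.244) and r = -0.12 in knockouts (exact permutation p = 0.811). For the adipocyte score the groups lay apart, so the relation was computed within each: Gli1 had r = 0.55 in controls (exact permutation p = 0.246, rho = 0.60, exact permutation p = 0.242, r = 0.72 without 2) and r = 0.29 in knockouts (exact permutation p = 0.597, rho = 0.26, exact permutation p = 0.658, r = 0.21 without 2). Within groups of 6 the smallest p was that of Gli1 with Hhip in controls (r = 0.84, exact permutation p = 0.0458, adjusted p = 0.656 over 16 values, rho = 0.77, exact permutation p = 0.103). That r was 0.20 without the 2 libraries most extreme in Gli1, which also narrows the range of Gli1 and leaves few libraries. In knockouts the same pair had r = 0.01 (exact permutation p = 0.972, rho = -0.09, exact permutation p = 0.919, r = -0.22 without 2).

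Genes whose pattern was most like that of Dhh and Gli1 were sought among 13474 tested genes whose mean log2 CPM was 1 or more, by Pearson correlation of the same group-centred values over 12 libraries. For Dhh they were Ick (r = 0.94), Tmem18 (0.93), Iffo2 (0.92), Bmp5 (0.91) and Cldn1 (0.88). For Gli1 they were Lrig1 (0.90), Zfp954 (0.86), Btf3l4 (0.85), H1fx (0.84) and Zfp622 (0.83). Each 5 are the highest of 13474 correlations over only 12 libraries, so high values can arise by chance, and shared regulation was not tested. Dhh, Gli1 and Hhip lay below that level and could not appear, and none of the other 6 hedgehog genes was among either 5.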

How the data were processed

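RNA of 12 whole muscle samples was sequenced after poly-T selection, per the labels' protocols. Per the submitters' processing notes, the tools were fastp, HISAT2 2.0.5 and featureCounts, and the build GRCm38 (mm10). Whether the counting used strand is not stated in the sources. The authors deposited whole-number read counts per gene and FPKM values, which scale counts by gene length and library. Counts were tested with edgeR 4.0.16 (R 4.3.3) as deposited: filterByExpr (minimum count 10, minimum total 15), TMM scaling and robust quasi-likelihood F tests, adjusted over all 16393 tested genes, threshold 0.05. Fold changes are knockout minus control; SEs and 95% intervals come from the F statistic. Log2 CPM uses a prior count of 2. DESeq2 1.42.0 and limma 3.58.1 (voom, and log2 of FPKM with a pseudocount of 1) were alternatives. On simulated counts for this comparison (16218 genes), 72 of 100 genes changed 2-fold and 38 of 100 changed 1.5-fold were recovered, with 2 of 112 calls false. Counts were drawn independently, and the changed genes came from all those with a mean count of at least 10. The rates therefore do not describe genes with few counts, such as Dhh and Hhip, on their own.

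The 9 genes and all lists were chosen with earlier results of these data known. Named genes are the 9, Pparg, fixed pathway genes, and of each hedgehog list those called and those with the smallest p that are described; the 5 most alike genes were named by correlation. Results for 1 pathway gene are left out of the text, though list counts include it. Pparg, Ccnd2 and other genes beside the 9 were put through the alternatives after the data were seen. Pairs of libraries within groups differed by more than sampling noise (chi-square per degree of freedom 11.9 to 144 over 30 pairs), and none was counted as a duplicate. Correlation p-values used 100000 resamples over 12 libraries or all orders within 6 (scipy 1.17.1).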

Additional observations from a re-analysis of the deposited data

Results flagged for a closer look

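A pair of values stood apart from the rest of their group of 6 by Dixon's ratio of gap to range, beyond its 95% limit, among 44 groups tested; chance flags about 1 in 20. Gli3 in control replicate 6 was 20.3 CPM (ratio 0.795), while the other 5 controls lay between 13.8 and 15.1 CPM. Hhip in knockout replicate 2 was 1.35 CPM (ratio 0.647), from 24 counts, while the other 5 knockouts lay between 0.661 and 0.903 CPM.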

How the results depend on the processing

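The count of hedgehog genes past the threshold was 0 of 9 in each alternative, those with 1 library left out included, and Dhh, Ptch1, Smo and Gli1 kept the sign of their fold change in each (Dhh and Hhip were not tested when at least 1 CPM in 6 libraries was required). Genes with fold changes near 0 changed sign. Gli3 was 0.0012 with RLE scaling, 0.0072 with upper quartile scaling and 0.0018 with DESeq2; Hhip was -0.0345 and Boc -0.0029 with limma-voom; Sufu was -0.0359 with the mitochondrial share as covariate. Without 1 library at a time the log2 fold change ran from -0.137 to 0.0575 for Gli2, -0.0845 to 0.0827 for Gli3, -0.0884 to 0.274 for Hhip, -0.0525 to 0.0730 for Sufu, -0.0167 to 0.205 for Timp3, -0.207 to 0.0316 for Gas1, -0.45 to -0.22 for Gli1 and 0.09 to 0.50 for Dhh. Over all genes the count of calls, 131, was 399 with DESeq2, 393 with limma-voom, 236 with a replicate block, and 6 to 214 without 1 library; the cause was not tested. Whether the replicate numbers mark a pairing across the groups was not settled. Deviations of same-numbered libraries correlated at -0.13 to 0.46, and control replicates 4 and 6 correlated best with the knockout of their own number. The replicate block changed no call among the 9, though Ccnd2 had an adjusted p of 0.0084 by edgeR with it. Pparg kept its call in 12 of 21 alternatives, Col15a1 in 17 and Gsn in 13. Ccnd2, not called in the main fit, passed in 5 of 21. Dhh with the Schwann cell score was r = 0.12 with log2(FPKM + 1) and 0.14 in the 6 controls. In the 6 knockouts it was r = -0.67 (exact permutation p = 0.143, adjusted p = 0.656). Gli1 with the FAP score was -0.60 in controls and -0.12 in knockouts. Depth limits Dhh, Hhip and Gli1 most.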
